A study of Homo sapiens with 9 samples.

Results

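The genes described here are the MEF2 transcription factor paralogues MEF2A, MEF2B, MEF2C and MEF2D, together with the antisense genes MEF2C-AS1 and MEF2C-AS2. They were chosen by GENCODE release 44 symbol and make up 6 of the 62700 genes and 129 of the 252835 transcripts in the data. Sequenced RNA came from HAL-01, a B cell acute lymphoblastic leukemia line that expresses the fusion transcription factor TCF3::HLF. Cells of every group stably expressed Cas9GFP and were collected on day 13. The MEF2C-enhancer KO class held 3 libraries with sgRNA_96 and 3 with sgRNA_97, both directed at the HLF site of an enhancer of MEF2C, and the control held 3 libraries with the scrambled guide SCR1. In all groups the replicates carried the numbers 1, 3 and 4. The labels do not say whether they were separate cultures, so p-values measure the spread between these libraries, which may be technical. The model is a single cell line in bulk, and the share of edited cells was not analysed here. Fewer cells expressing a gene and less RNA per cell therefore cannot be told apart.

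MEF2 proteins bind an A/T-rich DNA element as homodimers or heterodimers through a MADS box and a neighbouring MEF2 domain, which the paralogues share. They act as signal-dependent switches. Class IIa histone deacetylases hold them in a repressive state, and kinases that send those deacetylases out of the nucleus let MEF2 proteins recruit activators. In lymphoid cells MEF2C supports B cell development, and MEF2D takes part in fusions in a subtype of B cell leukemia. Because the paralogues bind the same element, the comparison asks whether MEF2A, MEF2B or MEF2D differed when the MEF2C enhancer was targeted, and how large each was beside MEF2C.

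The targeted bases are shown first, since they place the guides relative to the MEF2C transcripts described further on. The guides listed in the study's oligonucleotide sheet for this enhancer each had a single perfect match in hg38. Capitals mark the HLF motif, 5′ to 3′ on the guide strand. Which of the listed guides is sgRNA_96 and which is sgRNA_97 is not stated there.
E.1 (chr5:88825103-88825122, minus strand): tagcaTTACATAAtacatgt
E.2 (chr5:88825104-88825123, minus strand): ttagcaTTACATAAtacatg
E.3 (chr5:88825164-88825183, plus strand): tcaaagttcttggaacagga
Scrambled Cntr1: gtagcgaacgtgtccggcgt
Scrambled Cntr2: gaccggaacgatctcgcgta

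E.1 and E.2 lie across the motif and E.3 lies beside it, and the scrambled guides had 0 perfect matches. The motif was searched as TTACNTAA on both strands and lies at chr5:88825110-88825117. Of windows of 208 bases laid end to end along chromosome 5, 3.71% hold a match to this pattern. It is intronic in MEF2C, 79140 bases from the 5′ end of the gene, and 28 of the 57 annotated MEF2C transcripts span it. No MEF2C exon lies in the 208 bases around it. Those bases are given here so that the guide positions can be read off, as the plus strand of chr5:88825010-88825217 in hg38 with the motif in capitals.
Enhancer window: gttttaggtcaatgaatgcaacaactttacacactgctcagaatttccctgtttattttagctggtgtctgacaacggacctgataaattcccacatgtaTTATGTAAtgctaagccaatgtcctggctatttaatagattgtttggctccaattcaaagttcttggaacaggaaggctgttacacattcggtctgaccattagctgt

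In hg38, MEF2C (ENSG00000081189.17, minus strand) spans chr5:88717117-88904257. MEF2C-AS1 (ENSG00000248309.9, chr5:88883328-89466398) and MEF2C-AS2 (ENSG00000245864.5, chr5:88676014-88779088) lie on the plus strand and overlap opposite ends of it. MEF2A (ENSG00000068305.19) lies at chr15:99565417-99716488 on the plus strand, MEF2D (ENSG00000116604.19) at chr1:156463727-156500779 on the minus strand, and MEF2B (ENSG00000213999.17) at chr19:19145567-19192131 on the minus strand. Whether the counting used strand is not stated, so reads of MEF2C and its antisense genes may not be fully separated. MEF2B shares its strand with BORCS8 and with the readthrough gene BORCS8-MEF2B, and its values are uncertain for that reason. LYSMD4 overlaps MEF2A on the opposite strand.

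Libraries held between 15212462 and 29777361 estimated counts, and mitochondrial genes took 5.97 to 7.01% of them. All 10 genes listed for this B lineage leukemia, among them PAX5 and DNTT, were above 1 TPM (the level per transcript length, scaled to a sum of 1000000) in every library. The list also holds TCF3 and HLF, the partners of the fusion, so their reads may come from the fusion transcript. In bone marrow the paper found HLF almost only in hematopoietic stem cells, so it is not a lineage marker here. The muscle markers, checked because muscle is a classical site of MEF2 function, reached at most 0.0642 TPM when summed, and CKM and DES were at 0. T cell markers summed to at most 0.0444 TPM, with CD3D and CD3E at 0, and stromal markers to at most 0.575 TPM. Of 5 myeloid markers MPO and CSF1R were above 1 TPM in every library and ELANE was at 0, with sums of 13.1 to 16.4 TPM in SCR1 and 12.0 to 16.7 in KO. The genes of the B lineage list summed to 3188 to 3239 TPM in SCR1 and 3463 to 3573 in KO, and their part in the results below was not tested. DNTT alone ran from 1467 to 1898 TPM over the libraries, so the sums do not show a rise of each gene.

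MEF2C was by far the most abundant paralogue. Its level was 227, 243 and 215 TPM in SCR1 replicates 1, 3 and 4. It was 201, 186 and 202 TPM with sgRNA_96 and 221, 197 and 209 TPM with sgRNA_97. The SCR1 mean of 228 ± 13.9 TPM (SD, n = 3) placed MEF2C at rank 475 of 23719 genes detected in SCR1. KO libraries averaged 203 ± 12.0 TPM (n = 6), and their range overlapped that of SCR1.

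MEF2A and MEF2D, broadly expressed paralogues, stood next to each other well below MEF2C. MEF2A was at 52.0, 56.4 and 48.8 TPM in SCR1, at 57.6, 59.0 and 61.0 TPM with sgRNA_96, and at 61.4, 59.1 and 56.0 TPM with sgRNA_97. All but 1 of the 6 KO libraries lay above every SCR1 library. MEF2D was at 56.4, 51.5 and 53.0 TPM in SCR1, at 58.1, 50.4 and 52.0 TPM with sgRNA_96, and at 50.3, 51.7 and 54.6 TPM with sgRNA_97. The MEF2D groups overlapped throughout. In SCR1 the ranks of MEF2D and MEF2A were 2429 and 2493. Their order was not stable, since MEF2A was above MEF2D in 1 of 3 SCR1 libraries and in 5 of 6 KO libraries.

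MEF2B, the paralogue known for mutations in germinal centre lymphomas, and the antisense MEF2C-AS1 stood at a few TPM. MEF2B was at 2.33, 3.72 and 3.94 TPM in SCR1, at 2.02, 4.75 and 1.22 TPM with sgRNA_96, and at 2.94, 1.51 and 0.573 TPM with sgRNA_97. MEF2C-AS1, a long non-coding RNA gene, was at 3.08, 7.73 and 3.84 TPM in SCR1, at 5.35, 5.24 and 4.07 TPM with sgRNA_96, and at 7.99, 4.83 and 6.21 TPM with sgRNA_97. The highest value of each of these low genes was more than 2 times its lowest, and the groups overlapped. MEF2C-AS2 had 1 count in all 9 libraries together, in sgRNA_97 replicate 1. At these depths 3 counts, the limit that a count of 0 allows, correspond to 0.101 to 0.197 CPM (counts scaled by library size to a total of 1000000). In each library with a count of 0, MEF2C-AS2 was therefore not detectable at more than the limit of that library. The upper end, 0.197 CPM, is that of sgRNA_97 replicate 1, the library of fewest counts. With its 1 count, the limit for a count of 0 does not apply to it, and the limits of the other libraries are lower. This limit covers counting error only.

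**Figure D1:**
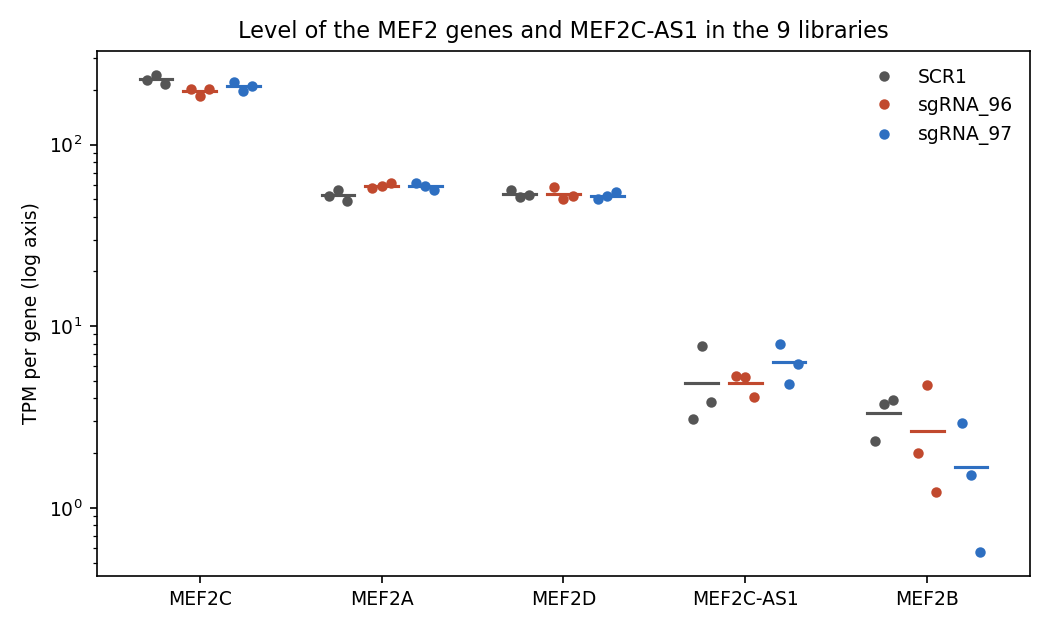
TPM per gene on a log axis for MEF2C, MEF2A, MEF2D, MEF2C-AS1 and MEF2B, with 1 point per library and a bar at the mean of each group of 3 (SCR1, sgRNA_96, sgRNA_97). MEF2C sits between 186 and 243 TPM, MEF2A and MEF2D between 48.8 and 61.4 TPM, and the other genes at 7.99 TPM or less.

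Next, each member was read out of the comparison of the 6 KO with the 3 SCR1 libraries over all genes, fitted on counts with edgeR. An adjusted p under 0.05 was reached by 20.7% of the 14436 genes in the fit, with 10.1% higher and 10.6% lower in KO. Of the 6 members 5 passed the filter on low counts, and MEF2A was the 1 called. This share lies close to the background, and a count of 1 says little about the members as a group. In CPM 20.3% of the genes tested had KO and SCR1 libraries that did not overlap, and in TPM 15.3%, whereas 0 members were without overlap on either scale.

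MEF2A rose in MEF2C-enhancer KO. It was at 156, 171 and 149 CPM in SCR1, at 176, 183 and 187 CPM with sgRNA_96, and at 170, 185 and 175 CPM with sgRNA_97. The lowest KO library, sgRNA_97 replicate 1, lay just under the highest SCR1 library. The log2 fold change was 0.18 (SE 0.050, 95% interval 0.08 to 0.29, adjusted p = 0.0169), a rise of 13.4% with an interval of 5.40 to 22%. The call was lost without SCR1 replicate 1 (0.17, adjusted p = 0.0924) and without SCR1 replicate 4 (0.14, adjusted p = 0.125). It was also lost with a gene length offset (0.17, adjusted p = 0.0622) and in limma on TPM (0.17, adjusted p = 0.0888).

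MEF2C differed from SCR1 by a log2 fold change of −0.12 (SE 0.042, 95% interval −0.20 to −0.03), which did not pass the threshold (adjusted p = 0.0620). The test rests partly on sgRNA_97 replicate 1, where MEF2C was at 553 CPM, within the SCR1 range. Leaving sgRNA_97 replicate 1 out gave −0.14 with an adjusted p of 0.0143. DESeq2 on all 9 libraries gave −0.12 with an adjusted p of 0.0206. In TPM the difference of the means was −25.5 (SE 9.38) for MEF2C and 6.59 (SE 2.36) for MEF2A.

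MEF2D gave a log2 fold change of 0.03 (SE 0.046, adjusted p = 0.692), and its 95% interval of −0.07 to 0.13 bounds any difference in either direction. Its sign turned on scales that take transcript length into account, to −0.022 in limma on TPM. In MEF2B the log2 fold change was −0.51 with an interval of −1.37 to 0.35 (adjusted p = 0.416), and in MEF2C-AS1 it was 0.31 with an interval of −0.16 to 0.78 (adjusted p = 0.361). Both intervals are wide, so the data neither show nor bound closely a difference in either gene. BORCS8-MEF2B, the readthrough gene that shares exons with MEF2B, was between 0.654 and 6.85 TPM and gave 0.32 (adjusted p = 0.686). BORCS8 gave −0.21 (adjusted p = 0.245).

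Each guide was then compared with the same 3 SCR1 libraries, so the comparisons share their controls. With sgRNA_96, 11.2% of all genes were called, and MEF2A was the 1 member called, with a log2 fold change of 0.20 (adjusted p = 0.0377). That call was lost in 7 of 15 alternatives. They were the gene length offset (0.17, adjusted p = 0.158), limma on TPM (0.17, adjusted p = 0.207), and the fits without SCR1 replicate 1 (0.19, adjusted p = 0.139) or replicate 4 (0.16, adjusted p = 0.172), sgRNA_96 replicate 3 (0.20, adjusted p = 0.119) or replicate 4 (0.18, adjusted p = 0.113), or sgRNA_97 replicate 4 (0.20, adjusted p = 0.0546). With the length offset MEF2C was called in its place (−0.23, adjusted p = 0.0492). In the fit on counts MEF2C gave −0.14 (adjusted p = 0.0853) and MEF2D 0.04 (adjusted p = 0.740). With sgRNA_97, 15.1% of all genes were called and 0 members, with 0.16 for MEF2A (adjusted p = 0.0807), −0.09 for MEF2C (adjusted p = 0.232) and 0.02 for MEF2D (adjusted p = 0.810). In the direct contrast of sgRNA_97 with sgRNA_96, 0.0208% of all genes were called by edgeR and 0 members, and 0 members had an unadjusted p under 0.05. DESeq2 also called 0 members. The difference between the guides was −0.04 (interval −0.17 to 0.08) for MEF2A and 0.05 (interval −0.06 to 0.15) for MEF2C. For MEF2C-AS1 it was 0.50 with an interval of −0.00 to 0.99, from 0.04 (adjusted p = 0.929) with sgRNA_96 and 0.54 (adjusted p = 0.130) with sgRNA_97.

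**Figure D2:**
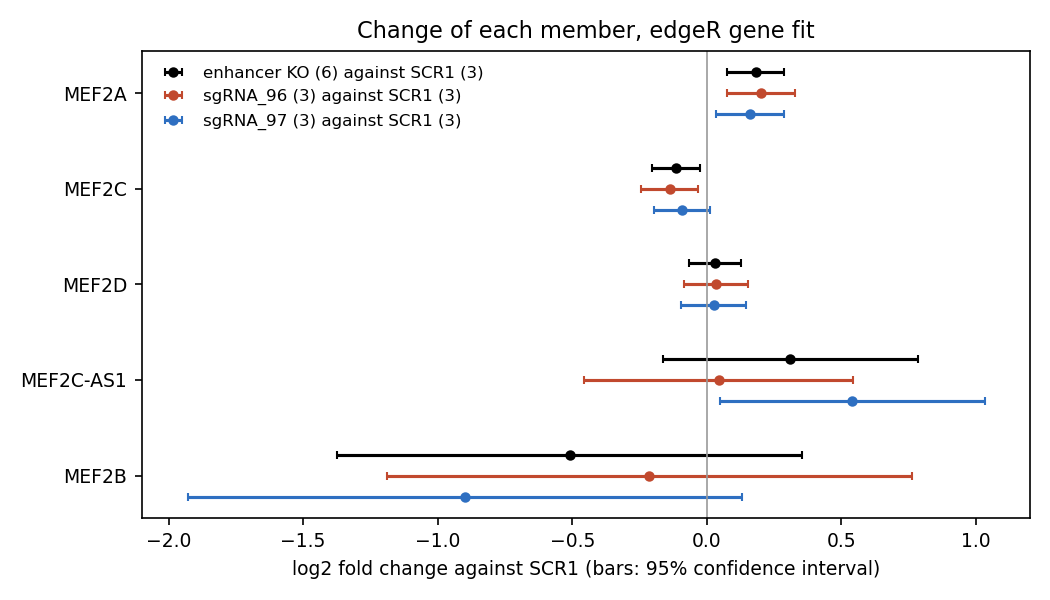
Log2 fold change against SCR1 with its 95% interval for MEF2A, MEF2C, MEF2D, MEF2C-AS1 and MEF2B, in the 6 KO libraries together and with each guide. The MEF2A intervals lie above 0, those of MEF2D span 0 closely (−0.07 to 0.13 in KO), and those of MEF2C-AS1 and MEF2B are wide.

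How large each paralogue was against MEF2C was asked within each library, where depth cancels. MEF2A stood at 22.9, 23.3 and 22.7% of the MEF2C level in SCR1. It stood at 28.6, 31.8 and 30.3% with sgRNA_96 and at 27.7, 30.1 and 26.7% with sgRNA_97, so all 6 KO libraries were above all SCR1 libraries. The means were 23 ± 0.284% (SD, n = 3) and 29.2 ± 1.84% (n = 6). The ratio also takes in the difference of MEF2C itself, a log2 fold change of −0.17 in limma on TPM. How often other genes separate in their ratio to MEF2C was not examined. On the log2 scale the ratio differed by 0.34, with p = 0.0119 in an exact two-sided permutation test, the smallest the 84 arrangements allow, and 0.0298 after adjustment over the family of 5 ratios and sums. With protein-coding transcripts only the difference was 0.26, 5 of 6 KO libraries were above, and the adjusted p of the exact test was 0.119. Leaving out single libraries kept the difference between 0.32 and 0.37. The call held without sgRNA_97 replicate 1 (adjusted p = 0.0223 in the exact test) or replicate 4 (0.0446), and was lost without each of the other 7, at 0.0595 without SCR1 replicate 4 and 0.0893 without the rest. With an SCR1 library left out, 28 arrangements remain and the smallest unadjusted p of the exact test is 0.0357.

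MEF2D stood at 24.8, 21.2 and 24.7% of MEF2C in SCR1, at 28.8, 27.1 and 25.8% with sgRNA_96 and at 22.7, 26.3 and 26.1% with sgRNA_97. The log2 ratio differed by 0.15, with 5 of 6 KO libraries above SCR1 and an adjusted p of 0.149 in the exact test. MEF2B stood at 1.47 ± 0.407% of MEF2C in SCR1 and 1.09 ± 0.804% in KO, a log2 difference of −0.71 with an adjusted p of 0.321 in the exact test. Adding the readthrough gene to MEF2B turned that difference to 0.073.

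MEF2C held 67.2, 68.5 and 67% of the summed TPM of the 4 coding paralogues in SCR1. It held 63.1, 61.9 and 63.8% with sgRNA_96 and 65.9, 63.6 and 65.3% with sgRNA_97. The share fell by 3.61 percentage points, from 67.6 ± 0.792% to 64.0 ± 1.45%, with all 6 KO libraries below SCR1 (exact two-sided permutation test, p = 0.0119, adjusted p = 0.0298). The share lost its call without the same 7 libraries, with differences of −4.00 to −3.16 over all 9 omissions. On protein-coding transcripts alone the difference was −3.0, with an adjusted p of 0.119 in the exact test. Even so MEF2C was above the sum of MEF2A, MEF2B and MEF2D in every library. That whole sum, MEF2C included, was 338 ± 16.8 TPM in SCR1 and 317 ± 12.2 TPM in KO, a difference of −20.8 TPM that did not pass (exact two-sided permutation test, p = 0.0595, adjusted p = 0.0992). In TPM units, MEF2A was 6.59 higher and MEF2C 25.5 lower.

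**Figure D3:**
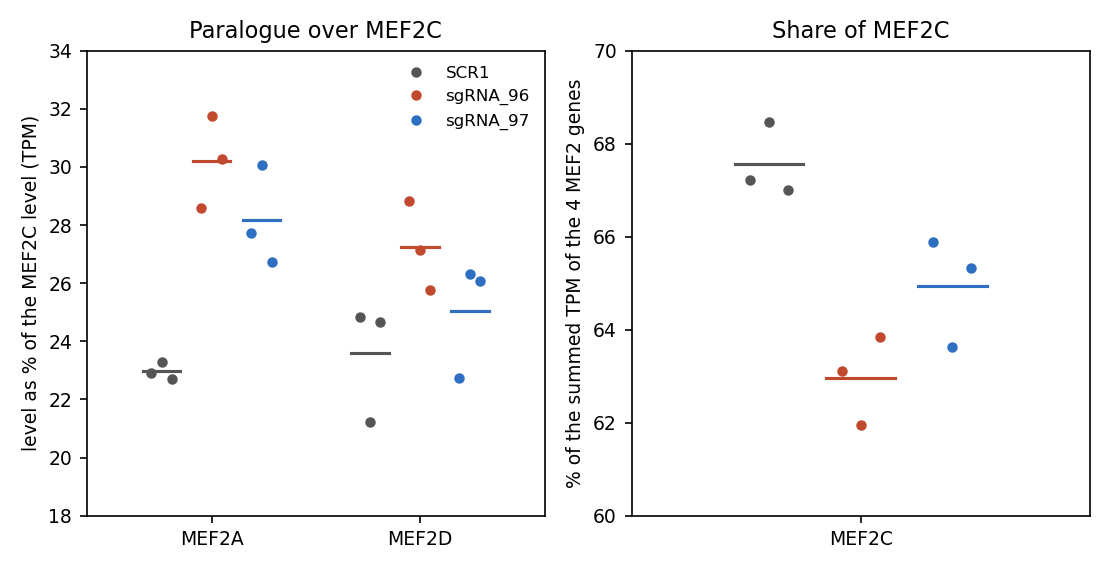
Left, MEF2A and MEF2D as a percent of the MEF2C level (TPM) in each library; right, MEF2C as a percent of the summed TPM of the 4 coding MEF2 genes; bars mark the mean of each group of 3, and the axes do not start at 0. MEF2A lies at 22.7 to 23.3% in SCR1 and 26.7 to 31.8% in KO, without overlap, while the MEF2D groups overlap.

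The kind of transcript behind the MEF2A difference was examined next. Protein-coding transcripts of MEF2A summed to 47.5 ± 5.55 TPM in SCR1 and 50.2 ± 3.55 TPM in KO, with 1 of 6 KO libraries above SCR1. Retained-intron transcripts, which are not annotated as coding, were at 2.94, 4.29 and 7.45 TPM in SCR1. They were at 7.05, 10.6 and 4.51 TPM with sgRNA_96 and at 15.0, 7.98 and 7.89 TPM with sgRNA_97, so 4 of 6 KO libraries lay above SCR1. Thus, of the difference of 6.59 TPM in MEF2A, 3.94 TPM was in retained-intron and 2.65 TPM in protein-coding models. This split holds for TPM and not for counts, on which the MEF2A call was made. The largest retained-intron model, MEF2A-213, held 6.38% of MEF2A TPM but only 1.84% of its counts. No test was run on this split, which rests on how Salmon divided the reads. Protein-coding transcripts made up 98.4% of MEF2C in SCR1 and 97.8% in KO, with means of 225 and 198 TPM and 5 of 6 KO libraries below SCR1.

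Of the 129 annotated transcripts 84 had a count in some library and 36 passed the filter. In the transcript fit 0.633% of all transcripts were called by edgeR and 0 of these 36, of which 4 had an unadjusted p under 0.05. DESeq2 called 2 of them, MEF2A-203 and MEF2C-217, but it also called 2214 of all transcripts against 348 in edgeR. The KO and SCR1 libraries did not overlap in TPM for 3 of the 36, a share near the 6.57% of all transcripts tested. This count therefore says little about the member transcripts as a group. MEF2A-203 (ENST00000449277.6), protein-coding and 47.1% of the counts of MEF2A, was at 18.5, 17.9 and 17.6 TPM in SCR1. It was at 22.5, 23.2 and 23.3 TPM with sgRNA_96 and at 22.5, 22.1 and 20.9 TPM with sgRNA_97. All KO libraries were above all SCR1 libraries, with a log2 fold change of 0.27 (SE 0.049, adjusted p = 0.0555, and 8.76e-05 in DESeq2).

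MEF2C-217 (ENST00000510942.5), also protein-coding, held 23.2% of the counts of MEF2C. It was at 53.2, 50.1 and 54.0 TPM in SCR1, at 48.4, 43.5 and 42.3 TPM with sgRNA_96, and at 46.6, 45.5 and 43.0 TPM with sgRNA_97. All KO libraries were below all SCR1 libraries, with −0.27 (SE 0.063, adjusted p = 0.133, and 0.00613 in DESeq2). The remaining transcript without overlap was the retained-intron MEF2A-213, with means of 2.60 TPM in SCR1 and 4.14 TPM in KO (0.62, adjusted p = 0.504).

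The other main transcripts gave values in both directions. In MEF2A, the canonical MEF2A-205 had a log2 fold change of −0.02, MEF2A-202 of 0.14 and MEF2A-217 of −0.19. In MEF2C, MEF2C-249, the largest by counts with 27.9%, had 0.08, MEF2C-244 had −0.21 and MEF2C-213 −0.18. In MEF2D, the canonical MEF2D-201 with 50.9% of the counts had 0.08, MEF2D-202 −0.16 and MEF2D-203 0.15. None of these passed, with adjusted p values from 0.797 upwards. MEF2B transcripts had 58.7 to 199.6 counts over all 9 libraries for the 4 largest. MEF2B-201 gave 0.30 and MEF2B-205 −0.86, and MEF2B-204 and MEF2B-202 fell under the filter. For MEF2C-AS1, MEF2C-AS1-213 was the largest with 144 counts and gave −0.41. MEF2C-AS1-209 and MEF2C-AS1-225 were at 0 in 6 libraries and MEF2C-AS1-220 in 4, and MEF2C-AS1-237 was under the filter. The 1 count of MEF2C-AS2 was in MEF2C-AS2-201.

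**Figure D4:**
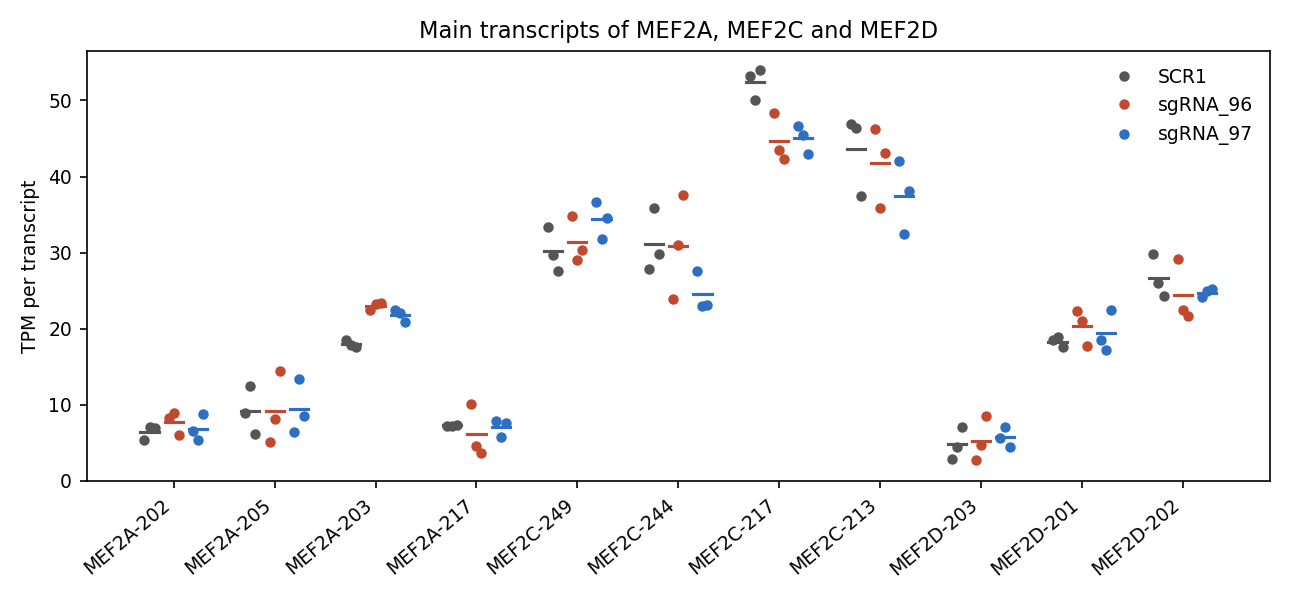
TPM of each transcript with at least 5% of its gene's counts for MEF2A, MEF2C and MEF2D, with 1 point per library and bars at the group means. MEF2A-203 lies at 17.6 to 18.5 TPM in SCR1 and 20.9 to 23.3 TPM in KO, and MEF2C-217 at 50.1 to 54.0 and 42.3 to 48.4 TPM, both without overlap.

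Transcript usage, the change of a transcript relative to its own gene, was called by edgeR for 0.142% of all transcripts and for 0.661% of genes. It was called for 0 of the 36 member transcripts, of which 0 had an unadjusted p under 0.05, and for 0 member genes. The limma test of usage also called 0 member genes.

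The start sites of MEF2C were set beside the enhancer. Transcripts were grouped where their 5′ ends lay within 500 bases of the next. The main group, 14 transcripts with starts at chr5:88882996-88883747, lies 57879 bases upstream of the motif and held 70.5 ± 2.68% of MEF2C TPM in SCR1 and 74.2 ± 4.91% in KO. A group of 6 transcripts with starts at chr5:88823784-88824340, just downstream of the motif, held 7.41, 12.5 and 10.4% in SCR1. It held 6.99, 4.66 and 5.89% with sgRNA_96 and 8.43, 8.70 and 10.9% with sgRNA_97, so all sgRNA_96 libraries were below SCR1 and all sgRNA_97 libraries within its range. The means were 10.1 ± 2.54% and 7.60 ± 2.23%, or 23.1 and 15.5 TPM (exact two-sided permutation test, p = 0.179, adjusted p = 0.425 over 10 start groups). Starts at chr5:88749097-88749124 held 14.1% in SCR1 and 12.6% in KO.

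Start groups of the other paralogues did not pass either, the smallest adjusted p of the exact test being 0.417. MEF2A started almost wholly at chr15:99565417-99566483, with 95% in SCR1 and 93.0% in KO. In MEF2D the start at chr1:156490599 held 49.7 and 46.5%, that at chr1:156500753-156500779 36.9 and 39.1%, and that at chr1:156483430 9.08 and 10.6%. In MEF2B the share of the main start ran from 47.0 to 100% between SCR1 libraries, and the cause of this spread was not tested.

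MEF2A, MEF2C and MEF2D share a short coding exon that is known to be included in muscle and brain and skipped in many other tissues. Its sequences show how close the paralogues are, with the bases identical between MEF2A and MEF2C in capitals, 15 of 24. The MEF2D exon is shorter and is given without capitals.
MEF2A (chr15:99703362-99703385, plus strand): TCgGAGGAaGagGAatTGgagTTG
MEF2C (chr5:88730211-88730234, minus strand): TCtGAGGAtGtcGAccTGcttTTG
MEF2D (chr1:156476494-156476514, minus strand): actgaggaccatttagatctg

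Among coding transcripts that span it, this exon was held by a minority in all genes. Its share of their TPM was 21.4% in SCR1 and 20.1% in KO for MEF2A, and between 12.2 and 28.6% over the 9 libraries. In MEF2C the share was 16.9 and 18.4%, between 14.2 and 22.6%. It was highest in MEF2D, at 36.8 and 39.7% and between 35.0 and 43.7%, above every MEF2A and MEF2C library. Between KO and SCR1 the adjusted p of the exact test, over 12 exons and computed on all coding TPM of the gene, was 0.964, 0.755 and 0.600.

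The paralogues also carry a pair of neighbouring alternative coding exons that follows the exons of the MADS box. Transcripts were assigned by overlap with an exon, so other forms of it are included. Of MEF2A, 81.5% in SCR1 and 82.2% in KO carried the exon of 132 bases at chr15:99671323-99671454, and the rest an exon overlapping chr15:99671520-99671657. The form of exactly these 138 bases was in 15.3 and 15.8%. Of MEF2C, 89.5 and 91.8% carried only an exon overlapping chr5:88761185-88761328, and 7.62 and 6.07% only that of 138 bases at chr5:88760988-88761125. The form of exactly 144 bases at the former place was in 88.7 and 89.5% of the TPM that spans it. Of MEF2D, 90.3 and 88.8% carried the exon of 138 bases at chr1:156480834-156480971 and 9.75 and 11.2% that of 135 bases at chr1:156480643-156480777. So each gene used chiefly 1 of its exons in every library. The exact test was run on the shares of the exact exons in all coding TPM, and none of those passed.

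The smallest adjusted p among the exons belonged to the shorter form of a MEF2C exon, chr5:88751866-88752043. This form made up 13.5 ± 1.33% of MEF2C coding TPM in SCR1 and 16.6 ± 0.744% in KO, with all 6 KO libraries above SCR1. The exact two-sided permutation test gave p = 0.0119 and an adjusted p of 0.143. That p is the smallest the 84 arrangements allow, so 1 exon alone among the 12 could not pass. Only 1 coding transcript carries this form, MEF2C-249, whose log2 fold change of 0.08 is given above.

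Genes that act with MEF2 factors were read from the same fit, in lists chosen for their role. Of the 8 corepressors and repressive deacetylases tested 1 was lower, against a background of 10.6% of all genes, and the median log2 fold change was −0.00, as it was 0.00 over all genes tested. The gene was HDAC9, a class IIa deacetylase that binds MEF2 proteins and is itself a MEF2 target. HDAC9 was at 36.4, 38.3 and 31.6 CPM in SCR1, at 23.8, 27.1 and 28.6 CPM with sgRNA_96, and at 25.1, 24.6 and 24.6 CPM with sgRNA_97, without overlap. It fell by 0.46 on the log2 scale (SE 0.076, adjusted p = 0.000523), a call that limma on TPM did not make. HDAC4, HDAC5, HDAC7, HDAC3, NCOR1 and CABIN1 did not pass, with log2 fold changes of −0.14 to 0.15.

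Of 20 kinases and phosphatase subunits that act on MEF2 proteins or on class IIa deacetylases 17 were tested and 1 was higher, against a background of 10.1%, with a median of 0.03. CAMK1, CAMK4 and PRKD1 were under the filter. PRKD2, a protein kinase D that phosphorylates class IIa deacetylases, was at 37.7, 35.5 and 39.1 CPM in SCR1. It was at 46.1, 50.2 and 43.6 CPM with sgRNA_96 and at 47.4, 47.3 and 48.5 CPM with sgRNA_97. All KO libraries were above SCR1, and PRKD2 rose by a log2 fold change of 0.33 (SE 0.058, adjusted p = 0.000932). The salt-inducible kinases SIK1, SIK2 and SIK3, which phosphorylate class IIa deacetylases, gave 0.12, −0.05 and −0.04, with adjusted p values of 0.830, 0.607 and 0.737.

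Of the 10 coactivators and partners 1 was lower, a share near the background of 10.6% of all genes, with a list median of 0.03. CARM1, an arginine methyltransferase that works with MEF2C, fell by 0.17 on the log2 scale, from 92.0 ± 4.38 to 82.0 ± 5.33 CPM (adjusted p = 0.0450), and the groups overlapped. This call was lost in 10 of 16 alternatives. The acetyltransferases EP300 and CREBBP gave 0.12 and 0.06, and neither passed.

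Of 18 known MEF2 target genes 8 were tested. The 10 others were under the filter and 6 of those, muscle genes among them, were at 0 in every library. Of the 8 tested, 5 were lower and 0 higher, against 10.6 and 10.1% of all genes, and the median was −0.55. The KO and SCR1 libraries did not overlap in CPM for the same 5, against 20.3% of all genes. The listed genes were chosen with earlier results of these data known, so the count is not independent evidence of a direction, and many of these genes also answer to other factors.

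EGR1, an immediate early zinc finger factor, was at 7.88, 7.81 and 7.37 CPM in SCR1. It was at 3.03, 2.68 and 3.63 CPM with sgRNA_96 and at 2.32, 2.63 and 3.21 CPM with sgRNA_97. It fell by 1.40 on the log2 scale (SE 0.15, adjusted p = 1.14e-05). JUN, a subunit of AP-1, fell from 6.86 ± 1.67 to 3.67 ± 0.381 CPM (−0.89, adjusted p = 0.00115). NR4A1, an orphan nuclear receptor, fell from 2.79 ± 0.501 to 1.61 ± 0.232 CPM (−0.78, adjusted p = 0.0192). The NR4A1 call was lost in 5 of 16 alternatives.

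BCL6, a repressor of germinal centre and pre-B cells, was at 41.6, 44.6 and 39.8 CPM in SCR1. With sgRNA_96 it was at 27.2, 27.5 and 24.9 CPM, and with sgRNA_97 at 26.6, 28.3 and 28.6 CPM. It fell by 0.62 on the log2 scale (SE 0.062, adjusted p = 5.77e-06). Gene models on the same strand overlap BCL6, at means of at most 0.628 TPM, so a small part of its counts is uncertain. HDAC9 is the remaining gene that fell. NR4A2 and NR4A3, the paralogues of NR4A1, gave 0.44 (adjusted p = 0.258) and −0.11 (adjusted p = 0.892), and SLC2A4, a glucose transporter, −0.48 (adjusted p = 0.449).

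**Figure D5:**
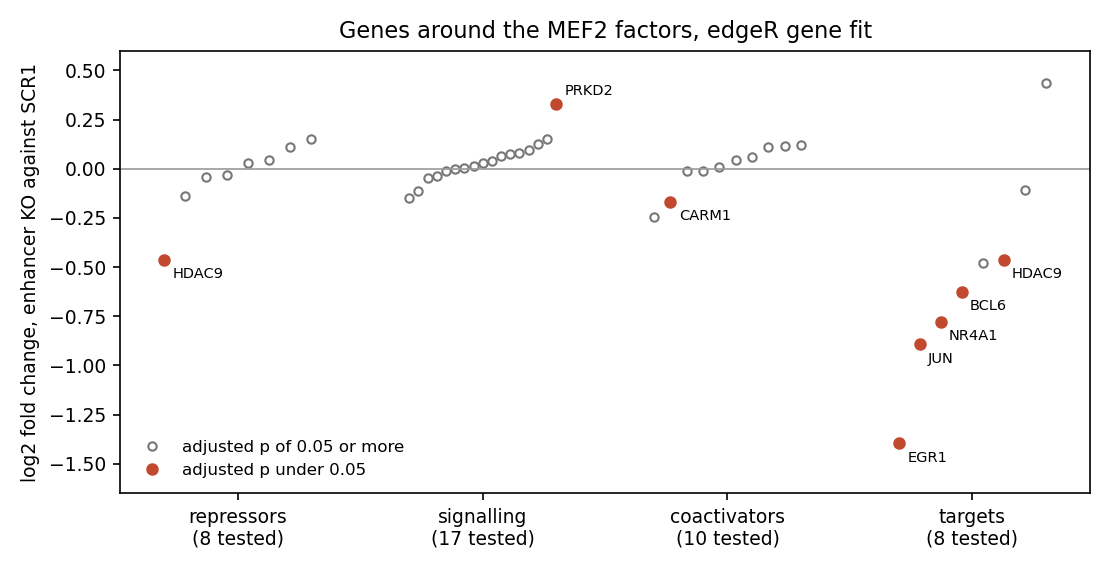
Log2 fold change of enhancer KO against SCR1 for the tested genes of the 4 lists, sorted within each list; filled points have an adjusted p under 0.05 and are named. Repressors, signalling genes and coactivators scatter around 0 with 1 filled point each, and 5 of the 8 tested targets are filled and lower, from −0.46 for HDAC9 to −1.40 for EGR1.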

How the data were processed

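The authors made poly(A)-selected libraries and, after trimming with TrimGalore, used STAR on GRCh38 (hg38) and Salmon 1.10.1. They deposited unnormalized estimated counts and TPM for each transcript. Transcript identifiers matched GENCODE release 44. Of the deposited estimated counts above 0, 87.8% were not whole. Salmon divides shared reads among transcripts by likelihood.

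Per gene, the estimated counts were added up and then rounded. After filterByExpr (minimum count 10) and TMM scaling, 14436 genes and 54988 transcripts entered quasi-likelihood tests (edgeR 4.0.16, R 4.3.3), adjusted by Benjamini-Hochberg over all of them (threshold 0.05). Each adjusted p is from this test unless another is named. Usage was tested with diffSpliceDGE. Ratios and shares used TPM summed per gene and exact permutation tests, adjusted within each family. DESeq2 1.42.0, limma 3.58.1 (log2 TPM with a pseudocount of 1), other scalings and filters, and leaving out each library were alternatives. Scripts were tested on simulated data.

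Members and lists were chosen with earlier results of these data known. Named were all members, transcripts with at least 5% of a gene's counts, list genes called in KO with the same sign for both guides, and the 3 genes most like MEF2A, MEF2C and MEF2D. The other genes, MEF2A-213 and the exon singled out by its p were named after their values were seen. Some genes of the lists are not reported here by name.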

Additional observations from a re-analysis of the deposited data

Results flagged for a closer look

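MEF2C in sgRNA_97 replicate 1 stood apart from the other KO libraries, at 553 CPM against 495 to 510 CPM in the other 5. The gap was 0.736 of the range of the 6 libraries, above the critical value of 0.625. It was the 1 value of this kind among 49 groups of 6 libraries examined. Chance gives about 1 in 20 such groups, so 1 flag is no more than chance gives. Without this library MEF2C had a log2 fold change of −0.14 (edgeR, adjusted p = 0.0143), against −0.12 (adjusted p = 0.0620) with it. Mitochondrial genes took 7.01% of the counts of this library, the highest share of the 9, and its retained-intron MEF2A level of 15.0 TPM was also the highest. The part of these values in the result was not tested.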

How the results depend on the processing

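Over 61 values and 834 alternatives, 682 stayed the same. For tested values this means the same direction and side of the threshold. For counts it means a number equal to the main one or within a set ratio of it. Another 27 reversed, 47 lost and 13 gained a call, and 65 counts moved further. The cause was not tested, other than by what each alternative changes.

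DESeq2 called 2 members in KO (MEF2C −0.12, adjusted p = 0.0206) and 3135 of all genes against 2984 in edgeR. It called 2 members with sgRNA_96 and 1 with sgRNA_97. Its calls over all genes for each guide are not given here, so those counts say little about the members. It also called 2 member transcripts, 2214 of all transcripts against 348 in edgeR, and 2 signalling genes. A gene length offset called 0 members (MEF2A 0.17, adjusted p = 0.0622), 1532 of all genes against 2984, and 0 coactivators. Without TMM scaling 0 coactivators were called. Limma on TPM with a pseudocount of 1 or 0.1 called 0 members, 1195 and 1222 of all genes, 0 repressors, 0 coactivators and 3 targets, with MEF2A at 0.17 in both (adjusted p = 0.0888 and 0.0896). It called 0 members with sgRNA_96. MEF2D reversed with the offset to −0.029 in KO, −0.014 with sgRNA_96 and −0.043 with sgRNA_97, and in limma to −0.022 in KO with either pseudocount, −0.0057 with sgRNA_96 and −0.038 with sgRNA_97. Without a filter 1 member (MEF2B) was called with sgRNA_97, and 142 of all transcripts. Limma's diffSplice called 239 genes for usage against 65. Protein-coding transcripts alone left 0 of the 5 ratios and sums past the threshold, against 2 (MEF2A to MEF2C 0.26, MEF2C share −3.0). With BORCS8-MEF2B added, the MEF2B ratio was 0.073. Under every setting 0 exon and 0 start shares passed, including exon shares over spanning transcripts, an alternative chosen after seeing the data. With 84 arrangements the smallest p of the exact test is 0.0119, so 1 exon or start share alone could not pass after adjustment. Leaving out an SCR1 library raises that smallest p to 0.0357.

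Leaving out 1 library at a time called 0 to 2 members in KO and 1503 (without SCR1 replicate 1) to 3547 of all genes, with MEF2A at 0.14 to 0.23 and MEF2C at −0.14 to −0.11. It called 0 to 1 members with sgRNA_96, 0 to 2 with sgRNA_97 (2 without SCR1 replicate 3), 0 to 1 member transcripts, 55 to 401 of all transcripts and 0 to 1 member genes for usage (1 without SCR1 replicate 1). Of the ratios and sums 0 to 4 passed (4 without sgRNA_97 replicate 1), with MEF2A to MEF2C at 0.32 to 0.37 and the MEF2C share at −4.00 to −3.16. List calls were 1 to 2 repressors, 1 to 2 signalling genes, 0 to 2 coactivators and 4 to 5 targets. Values that reversed ranged with sgRNA_96 from −0.87 to 0.13 for MEF2B, −0.014 to 0.075 for MEF2D and −0.077 to 0.27 for MEF2C-AS1. With sgRNA_97 MEF2D ranged from −0.011 to 0.042. Among transcripts the ranges were −0.24 to 0.23 for MEF2A-205, −1.44 to 0.88 for MEF2B-205, −0.11 to 0.54 for MEF2D-203, −0.25 to 6.36 for MEF2C-AS1-209 and −0.70 to 5.40 for MEF2C-AS1-225.

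Samples with the same replicate number did not deviate together (correlations of −0.084 to 0.065, 0 of 9 pairs over 0.1, and 3 of 9 libraries correlated best with their own number). Expression thus gave no sign of pairing by number, but this check cannot exclude shared handling, on which the labels are silent. A replicate block left MEF2A called, called 171 of all transcripts, and left 0 ratios past the threshold (0.34 and −3.61, adjusted p = 0.0617 in an exact test of 27 arrangements). MEF2B, the antisense genes and their transcripts have low counts, and transcript values depend on how Salmon divides reads.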

Other observations

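As a description, the genes whose log2 CPM followed each abundant paralogue most closely over the 9 libraries were listed, from 9568 genes with a mean of at least 10 CPM. For MEF2C they were ADGRA3 (Pearson r = 0.980), SUV39H2 (0.956) and MRM2 (0.950). For MEF2A they were OGFRL1 (0.966), NBPF8 (0.957) and CASC15 (0.951), and for MEF2D LZTS2 (0.971), MKNK2 (0.960) and NFIX (0.957). Between the paralogues r was −0.64 for MEF2A with MEF2C, −0.53 for MEF2C with MEF2D and −0.08 for MEF2A with MEF2D. The libraries include both conditions, and the points share depth and scaling, so no p is given. NBPF8 belongs to a family of near-identical copies, and its value is uncertain.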
